A study of Mus musculus with 22 samples.

Results

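The genes described here are the 7 cyclin-dependent kinase inhibitors of the INK4 and CIP/KIP families. Their mRNA was measured in isolated pancreatic islets of male mice aged 5.5 weeks, given as 5 to 6 weeks in the column names. These genes were chosen by gene symbol, as the members Cdkn1a, Cdkn1b, Cdkn1c, Cdkn2a, Cdkn2b, Cdkn2c and Cdkn2d, out of 57010 gene rows, and each symbol had 1 row. All 7 members were among the 16756 genes tested, those with a TPM (a unit of transcript abundance scaled for gene length and for the library total) of at least 1 in at least 5 samples. The design crossed genotype with genetic background over 22 libraries, each from the islets of 1 mouse. The groups were 5 mice labelled C57 WT, 6 labelled C57 Het, 5 labelled Mixed WT and 6 labelled Mixed Het. Het mice were heterozygous for MafA S64F, a change in MAFA, the beta-cell transcription factor, and WT mice carried MafA WT. The labels name neither the strains behind the Mixed background nor how the allele was made, and no treatment was given. Library numbers ran through the groups one after another, so library order and group cannot be told apart.

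Progression from G1 to S phase depends on cyclin D with CDK4 or CDK6 and on cyclin E with CDK2, which phosphorylate RB and release E2F transcription factors. The INK4 proteins (products of Cdkn2a, Cdkn2b, Cdkn2c and Cdkn2d) bind CDK4 and CDK6, whereas the CIP/KIP proteins (products of Cdkn1a, Cdkn1b and Cdkn1c) bind a wider range of cyclin and kinase complexes. The CDK4 and cyclin D2 pair is needed for postnatal beta-cell replication in the mouse, and lasting expression of Cdkn1a and Cdkn2a is widely used as a mark of cellular senescence.

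Promoter windows of RefSeq starts, from 250 bases before to 50 bases after the start, were found for 6 of the 7 members (9 windows, build GRCm38.p6). Those of Cdkn1a and Cdkn2b are shown because these 2 members were higher in Het islets on both backgrounds. Capitals mark matches, on either strand, to 3 motifs chosen with the sequences in view, namely the MAF half-site TGCTGA, a p53 core pair (CATG and CATG, 6 bases apart) and the GC box GGGCGG. The first Cdkn1a window is chr17:29090729-29091028 on the plus strand, the second is chr17:29093519-29093818 on the plus strand, and the Cdkn2b window is chr4:89310983-89311282 on the minus strand, each written 5′ to 3′ along the gene.
Cdkn1a, first start: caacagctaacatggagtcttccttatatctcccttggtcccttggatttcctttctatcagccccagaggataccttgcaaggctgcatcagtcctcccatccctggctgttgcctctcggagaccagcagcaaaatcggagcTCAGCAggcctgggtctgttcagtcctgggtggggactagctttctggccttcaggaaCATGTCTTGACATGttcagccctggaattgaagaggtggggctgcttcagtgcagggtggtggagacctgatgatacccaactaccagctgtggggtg
Cdkn1a, second start: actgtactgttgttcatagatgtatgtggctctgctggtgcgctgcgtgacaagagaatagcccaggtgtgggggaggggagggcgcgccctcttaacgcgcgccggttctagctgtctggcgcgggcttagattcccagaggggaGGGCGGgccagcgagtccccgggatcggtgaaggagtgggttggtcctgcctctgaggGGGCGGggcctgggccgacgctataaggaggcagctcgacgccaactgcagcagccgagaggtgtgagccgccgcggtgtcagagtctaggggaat
Cdkn2b: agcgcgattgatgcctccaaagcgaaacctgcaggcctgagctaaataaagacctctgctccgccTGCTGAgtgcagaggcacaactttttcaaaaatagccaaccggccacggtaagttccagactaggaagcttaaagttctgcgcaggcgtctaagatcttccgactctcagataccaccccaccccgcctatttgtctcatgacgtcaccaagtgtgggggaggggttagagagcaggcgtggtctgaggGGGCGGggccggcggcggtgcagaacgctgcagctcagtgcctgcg

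Counted from 1 at the 5′ end of the window, the first Cdkn1a start had a reverse-strand MAF half-site (TCAGCA) at bases 145 to 150 and the p53 core pair CATGTCTTGACATG at bases 203 to 216. The second Cdkn1a start had 2 GC boxes. The Cdkn2b window had 1 MAF half-site at bases 66 to 71 and 1 GC box at bases 255 to 260. Of 32851 windows of the same length, 19.5% held the MAF half-site, 0.712% the p53 core pair and 35.7% the GC box. The MAF half-site also lay in the Cdkn2d window and in the second Cdkn2c window. GC boxes also lay in windows of Cdkn1b, Cdkn2a, Cdkn2c and Cdkn2d, with 4 in the first Cdkn2c window and 5 in the Cdkn2d window. A further motif, the FOXO site GTAAACA (3.65% of windows), was in none of the 9. A match is a description of letters and no measure of binding.

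Library depth was unknown, since TPM keeps no read counts. The number of genes at 1 TPM or more lay between 14812 and 16133 per library, and correlations of log2(TPM + 1) between libraries lay between 0.950 and 0.990 within groups and between 0.904 and 0.977 across groups. The TPM table does not read the S64F allele, so it cannot check the genotype labels directly. Mafa mRNA averaged 441 ± 87.6 TPM (SD) over the 5 C57 WT mice and 117 ± 23.2 over the 6 C57 Het mice, and 598 ± 143 (n = 5) in Mixed WT and 152 ± 37.1 (n = 6) in Mixed Het. The 8 beta-cell markers, insulin genes included, summed to between 250651 and 478791 TPM in every library. Cd3e, the T-cell marker, was listed at 0 in at least 1 library of every group.

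Levels between genes can be compared here because TPM is scaled per length. Over the 22 libraries Cdkn1a (mean 52.1 TPM) and Cdkn1b (49.2 TPM) had the highest levels, followed by Cdkn2d (28.0), Cdkn2b (15.7), Cdkn2c (14.4), Cdkn1c (4.41) and Cdkn2a (1.12). Cdkn1a stood at the 89.13th percentile of the mean TPM of genes tested and Cdkn2a at the 8.504th. Cdkn1a and Cdkn1b exchanged places with genotype. Cdkn1b was above Cdkn1a in all 5 C57 WT mice with no overlap of their ranges, and Cdkn1a was above Cdkn1b in 5 of 6 C57 Het mice and in 6 of 6 Mixed Het mice. In Mixed WT mice Cdkn1a was the higher in 2 of 5, and the ranges overlapped. Cdkn2b and Cdkn2c also changed order, with Cdkn2b the higher in 1 of 5 C57 WT, 5 of 6 C57 Het, 0 of 5 Mixed WT and 5 of 6 Mixed Het mice. The ranges of this pair overlapped in every group except Mixed WT. Cdkn1c lay above Cdkn2a, and below both Cdkn2b and Cdkn2c, without overlap in each of the 4 groups.

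**Figure D1:**
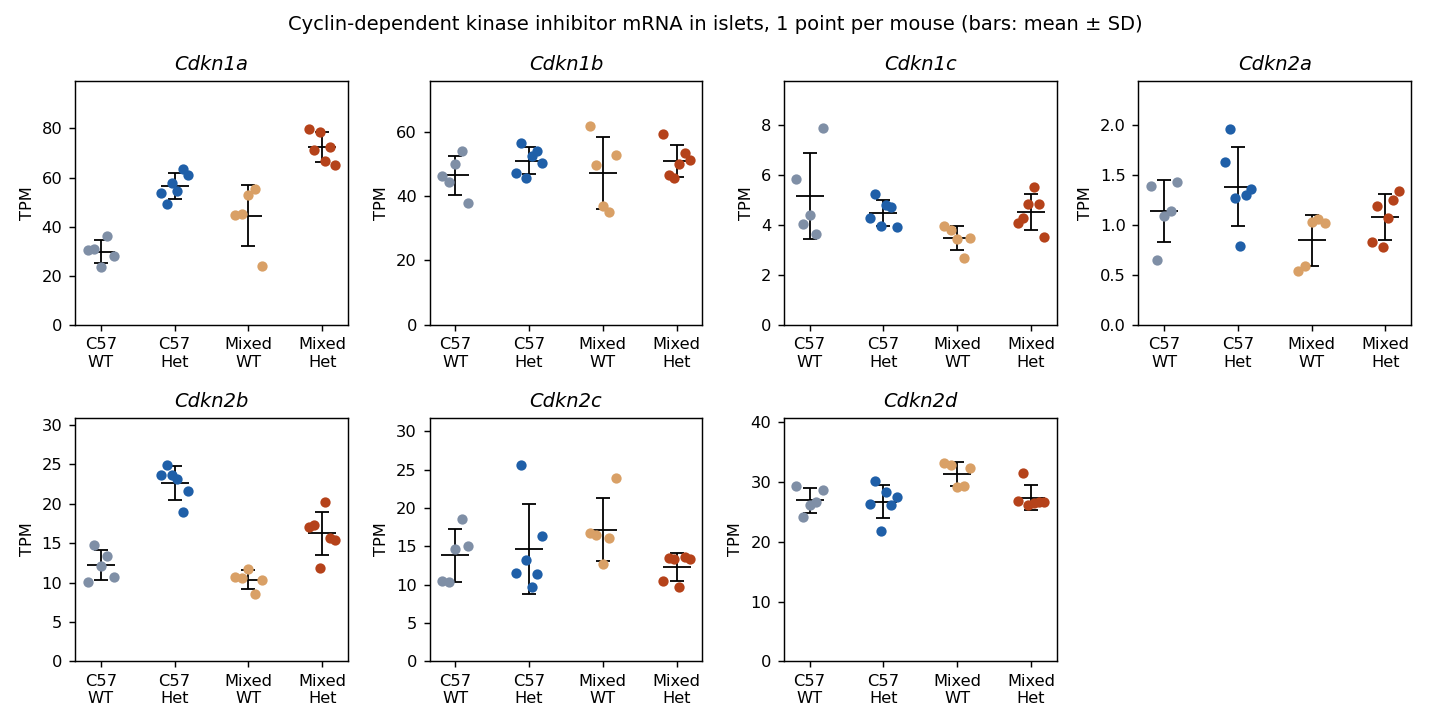
TPM of each of the 7 inhibitors (vertical axes, each starting at 0) in the 4 groups, with 1 point per mouse and bars for the mean and SD. For Cdkn1a and Cdkn2b every Het point lies above every WT point of the same background, while the groups of the other 5 genes overlap between genotypes.

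The first question was which inhibitors differed between Het and WT islets of the C57 background. Cdkn1a and Cdkn2b rose, each to nearly double its WT level, and the other 5 members did not pass the test. The test was limma on log2(TPM + 1), fitted over all genes and all 22 samples, with Benjamini-Hochberg adjusted p-values and a threshold of 0.05. Of all genes tested in this comparison, 38% passed, 26.4% higher and 11.6% lower in Het, against 2 of 7 members (28.6%), both higher. On the Mixed background Cdkn1a and Cdkn2b rose again and Cdkn2d fell slightly, so that 3 of 7 members (42.9%) passed beside 44.1% of all genes (30.7% higher, 13.5% lower). The share of members that passed was thus near the background share in both comparisons. Het and WT values did not overlap for 2 of 7 members on each background, where 21% of all genes were separated in C57 and 23.6% in Mixed (15.9% and 17.9% with Het higher, as for both members). The median log2 difference over all genes was 0.08 in C57 and 0.10 in Mixed as deposited, and 0.01 and -0.01 after median-of-ratios scaling. The share of higher values among all genes that passed was 69.5% in both comparisons. It was 53.5% in C57 and 48.9% in Mixed with median-of-ratios scaling, 56.1% and 55.8% with quantile normalization, and 50.2% and 51.1% with a total that left out the abundant genes.

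Among the CIP/KIP genes, Cdkn1a (ENSMUSG00000023067) encodes p21, the inhibitor that p53 induces after DNA damage. Its level in the 5 C57 WT mice was 30.4, 30.9, 23.5, 36.3 and 28.0 TPM. In the 6 C57 Het mice it ranged from 49.3 to 63.6 TPM with a median of 56.3. Every C57 Het mouse was above every C57 WT mouse, and the lowest Het value exceeded the highest WT value by more than the SD of either group. The means were 29.8 ± 4.65 TPM (SD, n = 5) and 56.7 ± 5.27 TPM (n = 6), a ratio of 1.90. This was a difference in log2(TPM + 1) of 0.91 (SE 0.149, 95% interval 0.60 to 1.22, limma adjusted p = 9.07e-05).

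On the Mixed background the 5 WT mice had Cdkn1a levels of 44.6, 45.3, 52.8, 55.4 and 24.1 TPM. The 6 Het mice ranged from 65.2 to 80.0 TPM with a median of 71.7. The groups again did not overlap, and Mixed WT replicate 5, at 24.1 TPM, lay well below the other 4 WT mice. The means were 44.5 ± 12.3 TPM (n = 5) and 72.3 ± 6.05 TPM (n = 6), a ratio of 1.63, with a log2 difference of 0.74 (SE 0.149, 95% interval 0.43 to 1.05, limma adjusted p = 0.000407). Without Mixed WT replicate 5 the difference was 0.54 and still passed. It was 0.60 (SE 0.262) with the immune and mesenchymal marker scores as covariates and no longer passed (limma adjusted p = 0.113). In that fit 17.7% of all genes passed. On the Mixed background the immune score did not overlap between genotypes (2.44 to 2.81 in WT, 3.10 to 3.86 in Het). The fit therefore separates genotype and this score poorly there. This limit holds for every later Mixed Het result with these covariates.

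Cdkn1b (ENSMUSG00000003031) encodes p27, which restrains CDK2 in resting cells and is abundant in adult islets. Its level was 46.2, 44.6, 50.0, 53.9 and 37.9 TPM in the C57 WT mice and 45.7 to 56.5 TPM (median 51.5) in the 6 C57 Het mice. In Mixed WT mice it was 61.9, 49.6, 37.0, 35.2 and 52.7 TPM, and in the 6 Mixed Het mice 45.7 to 59.4 TPM (median 50.6). The genotypes overlapped on both backgrounds. The log2 difference was 0.14 in C57 (95% interval -0.11 to 0.38, limma adjusted p = 0.381) and 0.14 in Mixed (-0.11 to 0.38, adjusted p = 0.373), so a change of the size seen for Cdkn1a lay outside both intervals.

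Cdkn1c (ENSMUSG00000037664) encodes p57 and is an imprinted gene expressed from the maternal allele. It was at 5.82, 4.01, 4.41, 3.63 and 7.86 TPM in C57 WT mice and at 3.90 to 5.23 TPM (median 4.50) in the 6 C57 Het mice. Mixed WT mice had 3.95, 3.81, 3.43, 2.68 and 3.48 TPM, and the 6 Mixed Het mice 3.50 to 5.52 TPM (median 4.55). Values overlapped between genotypes on both backgrounds, and C57 WT was the most variable group, with an SD of 33.6% of its mean. The log2 difference was -0.13 in C57 (95% interval -0.42 to 0.16, limma adjusted p = 0.482). In Mixed it was 0.30 (0.01 to 0.58), which did not pass after adjustment over all genes (unadjusted p = 0.0443 and limma adjusted p = 0.0879).

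Among the INK4 genes, Cdkn2b (ENSMUSG00000073802) encodes p15, an inhibitor of CDK4 and CDK6 that TGF-beta signalling induces in many epithelial cells. The 5 C57 WT mice had 10.1, 14.8, 12.1, 13.4 and 10.7 TPM, and the 6 C57 Het mice had 18.9 to 24.9 TPM with a median of 23.4. The groups were separate, with means of 12.2 ± 1.93 TPM (n = 5) and 22.6 ± 2.13 TPM (n = 6), a ratio of 1.86. The log2 difference was 0.85 (SE 0.113, 95% interval 0.61 to 1.08, limma adjusted p = 9.98e-06).

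In Mixed WT mice Cdkn2b was at 10.8, 10.5, 11.8, 8.52 and 10.3 TPM. In the 6 Mixed Het mice it lay between 11.9 and 20.3 TPM with a median of 16.4. The groups did not overlap, although the lowest Het mouse (11.8767 TPM) was barely above the highest WT mouse (11.7734 TPM). The means were 10.4 ± 1.18 TPM (n = 5) and 16.3 ± 2.76 TPM (n = 6), a ratio of 1.56, with a log2 difference of 0.59 (SE 0.113, 95% interval 0.35 to 0.82, limma adjusted p = 0.000262). Cdkn2b passed in both comparisons under each of the 11 alternatives and without each library in turn, with log2 differences of 0.72 to 0.92 on the C57 and 0.46 to 0.67 on the Mixed background.

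Cdkn2a (ENSMUSG00000044303) encodes p16 and, from another reading frame, the p53 activator p19ARF. A value per gene cannot separate these 2 products. Its level was 1.40, 0.644, 1.10, 1.14 and 1.43 TPM in C57 WT mice and 0.786 to 1.97 TPM (median 1.33) in the 6 C57 Het mice. In Mixed WT mice it was 0.542, 0.586, 1.03, 1.06 and 1.02 TPM, and in the 6 Mixed Het mice 0.781 to 1.34 TPM (median 1.13). All 4 groups overlapped near 1 TPM, where the log2(TPM + 1) scale understates changes. The log2 difference was 0.15 in C57 (95% interval -0.13 to 0.43, limma adjusted p = 0.390) and 0.18 in Mixed (-0.11 to 0.46, adjusted p = 0.306). Cdkn2a passed in none of the 5 comparisons.

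Cdkn2c (ENSMUSG00000028551) encodes p18, an inhibitor of CDK4 and CDK6. C57 WT mice had 10.4, 10.4, 14.6, 18.6 and 15.1 TPM, and the 6 C57 Het mice 9.71 to 25.6 TPM (median 12.4). Mixed WT mice had 16.7, 16.4, 12.6, 16.1 and 23.9 TPM, and the 6 Mixed Het mice 9.63 to 13.6 TPM (median 13.4). The genotypes overlapped on both backgrounds, on the Mixed background through 1 WT mouse (replicate 3, at 12.6 TPM). The log2 difference was 0.04 in C57 (95% interval -0.37 to 0.44, limma adjusted p = 0.898) and -0.43 in Mixed (-0.84 to -0.02, adjusted p = 0.0798). In Mixed the value passed without replicate 3 of the WT mice (-0.53) and lay at -0.31 without replicate 5 (adjusted p = 0.218). It also passed with median-of-ratios scaling (-0.55, limma adjusted p = 0.0345), quantile normalization (-0.53, 0.0432), a total without abundant genes (-0.56, 0.0350) and the Mixed samples fitted alone (-0.43, 0.0290).

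Cdkn2d (ENSMUSG00000096472) encodes p19INK4d, another inhibitor of CDK4 and CDK6. It was the steadiest of the 7 members in each WT group, with an SD of 7.68% of the mean in C57 WT and 6.40% in Mixed WT. C57 WT mice had 29.3, 24.1, 26.2, 26.7 and 28.6 TPM, and the 6 C57 Het mice 21.9 to 30.2 TPM (median 26.9). The difference there was -0.02 on the log2 scale (95% interval -0.17 to 0.14, limma adjusted p = 0.891). Mixed WT mice had 33.3, 32.9, 29.1, 29.3 and 32.3 TPM, whereas 5 of the 6 Mixed Het mice lay between 26.1 and 26.9 TPM and replicate 2 was at 31.5 TPM. Cdkn2d fell in Mixed Het by 0.19 on the log2 scale (SE 0.0749, limma adjusted p = 0.0450), with overlap through that 1 Het mouse. This call was lost without any 1 of 8 of the 11 libraries (all except Mixed WT replicates 3 and 4 and Mixed Het replicate 2), with adjusted p up to 0.0980. It was also lost without the filter on low values (adjusted p = 0.0610), without the trend in limma's variance (0.0551) and with the immune and mesenchymal scores as covariates (0.552).

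**Figure D2:**
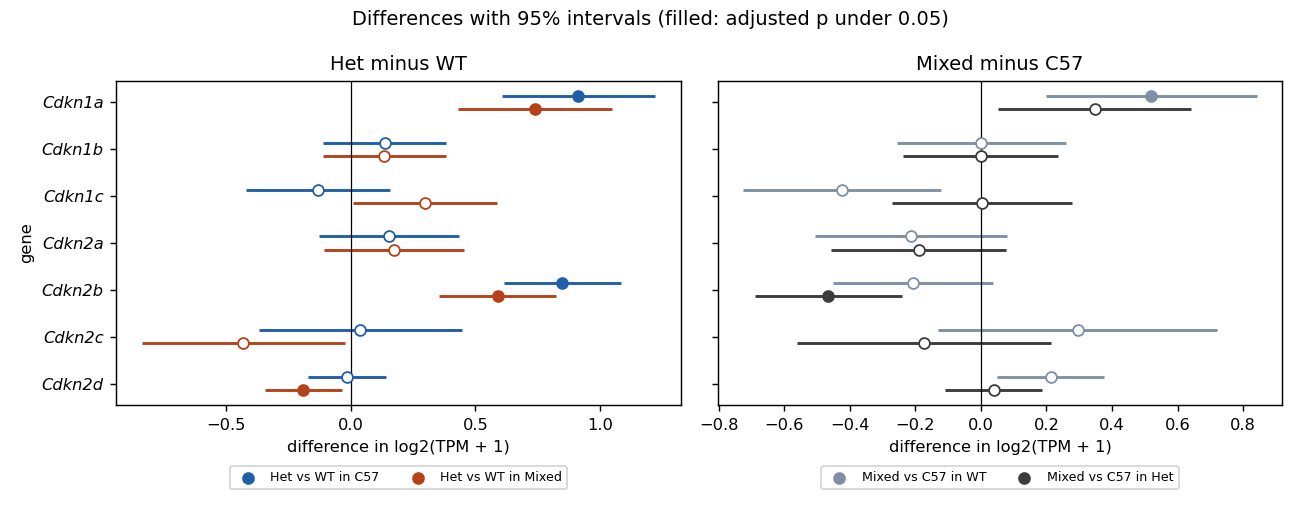
Differences in log2(TPM + 1) of the 7 inhibitors with 95% intervals, Het minus WT on the left and Mixed minus C57 on the right, filled where the limma adjusted p was under 0.05. Het minus WT passed for Cdkn1a and Cdkn2b on both backgrounds and for Cdkn2d in Mixed, and Mixed minus C57 passed for Cdkn1a in WT and Cdkn2b in Het.

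Whether the genotype difference depended on background was tested by the interaction, Mixed difference minus C57 difference. No member passed (0 of 7, with 1 at an unadjusted p under 0.05 in limma), beside 7.36% of all genes. The interaction was -0.17 for Cdkn1a (95% interval -0.61 to 0.26, limma adjusted p = 0.632) and -0.26 for Cdkn2b (-0.59 to 0.07, adjusted p = 0.314). Without Mixed WT replicate 5 the Cdkn1a interaction was -0.37 (adjusted p = 0.0847). Cdkn1c had the lowest unadjusted p, 0.0408, with an interaction of 0.43 (0.02 to 0.83, adjusted p = 0.173). The values were -0.47 for Cdkn2c, -0.17 for Cdkn2d, 0.022 for Cdkn2a and -0.0018 for Cdkn1b. These intervals are wide, so equal responses on the 2 backgrounds were not shown.

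Between backgrounds, Cdkn1a was higher in Mixed WT than in C57 WT islets by 0.52 on the log2 scale (SE 0.155, limma adjusted p = 0.0328), the 1 member of 7 that passed beside 11.3% of all genes (6.3% higher and 4.99% lower in Mixed). The WT groups overlapped through Mixed WT replicate 5. This call was lost without any 1 of 7 of the 10 WT libraries (C57 WT replicates 1, 3 and 5 and Mixed WT replicates 1, 2, 3 and 4; highest adjusted p 0.0941). It was also lost when only the WT samples were fitted (adjusted p = 0.182), without the filter on low values (0.0672) and with the acinar score as a covariate (0.0714). In these fits 4.96%, 4.66% and 8.3% of all genes passed, in that order, against 11.3%. Without Mixed WT replicate 5 the difference was 0.72 (adjusted p = 0.000126). In Het islets Cdkn1a was 0.35 higher in Mixed, which did not pass (adjusted p = 0.0894) although the 6 Mixed Het mice lay above the 6 C57 Het mice without overlap, as did 6.56% of all genes in that direction. It passed when only the Het samples were fitted (limma adjusted p = 0.00383).

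Cdkn2b showed the opposite order of backgrounds in Het islets. Its Mixed Het values lay mostly below the C57 Het values, with a log2 difference of -0.47 (SE 0.108, limma adjusted p = 0.00413). It was the 1 member of 7 that passed beside 20.5% of all genes (13.3% higher and 7.13% lower in Mixed). The groups overlapped through Mixed Het replicate 4, at 20.3 TPM. The difference was -0.36 with the immune and mesenchymal scores as covariates and did not pass (adjusted p = 0.674), in a fit where 0.161% of all genes passed. In WT islets Cdkn2b differed by -0.21 between backgrounds (adjusted p = 0.277). Cdkn1c was 0.42 lower and Cdkn2d 0.21 higher in Mixed WT than in C57 WT, and neither passed (adjusted p = 0.0616 and 0.0830). Cdkn1c passed with quantile normalization (-0.48, limma adjusted p = 0.0456), a total without abundant genes (-0.51, 0.0395), the acinar covariate (-0.52, 0.0404) and without C57 WT replicate 2 (-0.49, 0.0371) or 4 (-0.52, 0.0271). Cdkn2d passed with sample weights (0.29, limma adjusted p = 0.0121).

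The summed TPM of the 7 inhibitors was 136 ± 10.2 in C57 WT, 178 ± 9.89 in C57 Het, 155 ± 10.5 in Mixed WT and 185 ± 7.76 in Mixed Het. Cdkn1a made up 21.9% of that sum in C57 WT and 32.0% in C57 Het, and 28.8% and 39.1% in Mixed WT and Mixed Het. The share of the CIP/KIP genes together was 60.0%, 63.3%, 61.3% and 69.1% in the same order. Across the 22 libraries Cdkn1a and Cdkn2b had a Pearson correlation of 0.469, and within groups, over deviations from the group means, it was -0.141. The libraries share their groups and a fixed total, and the values are a description.

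Markers of other cell types moved with genotype, and in bulk islets fewer cells of a type and less RNA per cell cannot be told apart. The counts below are of markers that passed. Of all genes tested, 38% passed in C57 (26.4% higher and 11.6% lower in Het) and 44.1% in Mixed (30.7% higher and 13.5% lower). The C57 counts of ductal and endothelial markers were near the 38% for either direction. Of 6 alpha, delta and PP cell markers, 5 were higher in Het on each background, with summed TPM of 37088 to 77256 in C57 WT against 91932 to 138794 in C57 Het, and 38810 to 67823 in Mixed WT against 114893 to 169406 in Mixed Het. Of 8 beta-cell markers, 1 was lower and 1 higher in C57 Het, and 5 were lower in Mixed Het. Their summed TPM was 369914 to 449821 in C57 WT, 323787 to 379227 in C57 Het, 401255 to 478791 in Mixed WT and 250651 to 342599 in Mixed Het. Acinar markers (8 listed) were higher in C57 Het for 7 genes and in Mixed Het for 1, and their sums ranged from 201 to 376, 250 to 1586, 166 to 824 and 602 to 1156 TPM over the same 4 groups. Ductal markers passed as higher in 2 of 5 tested (6 listed) in C57 and 5 of 5 in Mixed, with sums of 127 to 146, 166 to 283, 112 to 170 and 173 to 544 TPM. Endothelial markers (5 listed) were lower in C57 Het for 2 genes, Kdr (-0.40) and Esam (-0.55), and in Mixed Het for 0, with sums of 278 to 702, 270 to 333, 344 to 407 and 323 to 609 TPM. Mesenchymal markers (7 listed, 6 tested) and immune markers (8 listed, 5 tested) were higher in Mixed Het for 5 and 4 genes and in C57 Het for 0 of each. Mesenchymal sums were 34.4 to 89.9 TPM in C57 WT, 39.8 to 64.9 in C57 Het, 31.4 to 62.8 in Mixed WT and 58.0 to 367 in Mixed Het. Immune sums, in that order, were 28.6 to 49.3, 24.6 to 34.9, 26.4 to 37.3 and 48.2 to 90.6 TPM.

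In fits that held the acinar score as a covariate, the Cdkn1a difference was 0.89 in C57 (limma adjusted p = 0.00219), and on the Mixed background it was 0.73 (adjusted p = 0.00241). Cdkn2b kept 0.86 (adjusted p = 0.000277) and 0.60 (adjusted p = 0.00132) in the same fits, where 21.8% of all genes passed in C57 and 34.2% in Mixed. On the C57 background the acinar score was 3.89 to 4.54 in WT and 4.18 to 6.63 in Het. The genotypes overlapped only through C57 Het replicate 3, so the fit separates genotype and this score poorly there. This limit holds for every later C57 result with the acinar covariate. With the immune and mesenchymal scores as covariates Cdkn2b was 0.83 higher in C57 Het (adjusted p = 4.45e-05) and 0.67 higher in Mixed Het (adjusted p = 0.0256), and Cdkn1a was 0.93 higher in C57 Het (adjusted p = 0.000207). Within groups, the correlation of Cdkn1a with the beta-cell score was -0.481 and with the alpha, delta and PP score -0.0229. The corresponding values for Cdkn2b were 0.53 and -0.0997, as descriptions over 22 libraries that share a total. For Cdkn1c the within-group correlation with the endothelial score was 0.589. The part of the beta-cell, alpha, delta, PP, ductal and endothelial markers in the differences of the members was not tested.

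The targets of the inhibitors were read from a list of 12 kinases and cyclins, all tested. In C57, 2 were higher and 1 lower in Het (25%, beside 38% of all genes), and in Mixed 3 were higher and 2 lower (41.7%, beside 44.1%), with median log2 differences of -0.02 and 0.13. The share was below or near that of all genes. Ccnd2, the main cyclin D of beta cells, rose from 207 ± 21.2 TPM to 358 ± 34.5 TPM in C57 (log2 difference 0.79, limma adjusted p = 4.52e-06) and from 222 ± 28.4 to 310 ± 39.4 TPM in Mixed (0.48, adjusted p = 0.000507). Cdk4, the kinase that cyclin D2 activates, fell from between 91.6 and 126 TPM in C57 WT to between 74.5 and 82.0 TPM in C57 Het (-0.49, adjusted p = 1.56e-05). On the Mixed background it fell from between 101 and 112 TPM to between 71.0 and 82.8 TPM (-0.45, adjusted p = 1.77e-05). Cdk6 rose by 0.44 and 0.78, from low levels of 0.564 ± 0.187 and 0.874 ± 0.134 TPM in WT. The log2(TPM + 1) scale understates changes at such levels, and the Cdk6 ratios of mean TPM were 1.98 in C57 and 2.58 in Mixed. In Mixed Het the S-phase cyclin Ccne2 rose by 0.63 and the mitotic cyclin Ccnb2 fell by 0.55. The Ccne2 call was lost with the immune and mesenchymal scores as covariates (0.28), as was the Ccnb2 call, which was also lost with the acinar score, with sample weights, without the filter on low values and without any 1 of 6 of the 11 libraries (Mixed WT replicates 2, 4 and 5 and Mixed Het replicates 1, 3 and 4; highest limma adjusted p 0.122).

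Of 11 RB pocket protein and E2F genes, 3 were higher and 0 lower in C57 Het, and 2 were higher and 1 lower in Mixed Het, with median log2 differences of 0.19 and 0.17. This share of 27.3% in each comparison was below the 38% and 44.1% of all genes. In C57 the pocket protein genes Rbl2 (0.50, limma adjusted p = 0.00396) and Rb1 (0.47, adjusted p = 0.00294) rose, as did E2f5, a repressive E2F (0.35, adjusted p = 0.00812). Rb1 (0.34, adjusted p = 0.0693) and E2f5 (0.30, adjusted p = 0.0872) did not pass with the acinar score as a covariate, in a fit where 21.8% of all genes did. In Mixed E2f3 rose by 0.48, E2f2 rose by 0.34 and E2f7, an atypical repressor, fell by 0.44. E2f7 did not pass without Mixed WT replicate 4 (-0.33, adjusted p = 0.0676), and E2f2 did not without Mixed WT replicates 2 or 3 or Mixed Het replicates 1 or 5 (adjusted p up to 0.0957). E2f2 also did not pass under each of 3 other scalings (0.23 to 0.28), nor E2f7 with the acinar score (-0.35). In Mixed 0 of the 11 passed with the immune and mesenchymal scores as covariates, in a fit where 17.7% of all genes did.

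Of 18 replication and division genes, 4 were higher and 0 lower in C57 Het, and 8 were higher and 1 lower in Mixed Het, with median log2 differences of 0.12 and 0.28. The shares were 22.2% beside 38% of all genes in C57 and 50% beside 44.1% in Mixed. The MCM genes encode subunits of the helicase that opens replication origins. The largest differences in C57 were in Mcm2 (0.58, limma adjusted p = 0.00262) and Mcm4 (0.56, adjusted p = 0.0435), with the ribonucleotide reductase gene Rrm1 (0.48, adjusted p = 0.00887). In Mixed they were in Mcm5 (0.86, adjusted p = 0.00113), Mcm6 (0.79, adjusted p = 1.84e-05) and Mcm3 (0.66, adjusted p = 0.00567). The Mcm4 call in C57 was lost under each of 3 other scalings, and without any 1 of 8 of the 11 libraries (C57 WT replicates 1, 3, 4 and 5 and C57 Het replicates 2, 4, 5 and 6; highest adjusted p 0.111). In Mixed Het, Mcm4 was the 1 gene of the list that fell (-0.54, adjusted p = 0.0456), from 22.8 ± 10.3 to 14.2 ± 1.79 TPM. This call too was lost without any 1 of 8 of the 11 libraries (Mixed WT replicates 2, 3 and 4 and Mixed Het replicates 1, 2, 4, 5 and 6; highest adjusted p 0.179), and without Mixed WT replicate 4 the value was -0.35. The proliferation marker Mki67, named after its value was seen, differed by 0.12 on the C57 background (adjusted p = 0.737) and by -0.31 on the Mixed one (adjusted p = 0.323). Only 1 of the 18 passed in Mixed with the immune and mesenchymal scores as covariates, in a fit where 17.7% of all genes did.

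Of 16 p53 pathway genes 15 were tested. In C57 Het 5 were higher and 2 lower (46.7%, beside 38% of all genes), and in Mixed Het 7 were higher and 2 lower (60%, beside 44.1%), with median log2 differences of 0.10 and 0.23. Ccng1, which encodes cyclin G1 and is a p53 target like Cdkn1a, rose from 34.5 ± 9.08 to 62.8 ± 6.49 TPM in C57 (log2 difference 0.88, limma adjusted p = 9.69e-05) and from 35.8 ± 7.29 to 64.6 ± 5.71 TPM in Mixed (0.86, adjusted p = 6.79e-05). Bbc3, the p53 target that encodes the cell-death protein PUMA, moved the other way, by -0.70 (adjusted p = 0.00153) on the C57 and by -0.81 (adjusted p = 0.000255) on the Mixed background. Aen, which encodes a nuclease, rose by 0.67 in C57, and Phlda3, an inhibitor of AKT, by 0.92 in Mixed. With the immune and mesenchymal scores as covariates the Mixed values of Bbc3 (-0.70, adjusted p = 0.0801) and Phlda3 (0.25, adjusted p = 0.503) did not pass. In that fit 2 of the 15 genes passed, beside 17.7% of all genes.

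Of 25 regulators of the inhibitor genes, 5 were higher and 3 lower in C57 Het, and 3 were higher and 1 lower in Mixed Het, with median log2 differences of 0.13 and 0.12. The shares, 32% and 16%, were below the 38% and 44.1% of all genes. In C57 the largest differences were in the Id genes, which encode inhibitors of E-box transcription factors: Id1 (-0.78, limma adjusted p = 0.0141), Id3 (-0.63, adjusted p = 0.0114) and Id2 (-0.51, adjusted p = 0.00869) fell. None of the 3 passed with the acinar score as a covariate (adjusted p = 0.0842, 0.0644 and 0.111), in a fit where 21.8% of all genes passed in C57. Id1 also did not pass without C57 WT replicate 5 (-0.54, adjusted p = 0.0605) or with sample weights (-0.43, adjusted p = 0.0736). In Mixed, Smad3, a transducer of TGF-beta signals, rose by 0.57 (adjusted p = 0.000738), Men1, which encodes menin, rose by 0.34 (adjusted p = 0.00231) and Foxo1 fell by 0.26 (adjusted p = 0.0155). With the immune and mesenchymal scores as covariates Smad3 (0.36, adjusted p = 0.185) and Foxo1 (-0.19, adjusted p = 0.358) did not pass. The count in Mixed was 7 with median-of-ratios scaling or quantile normalization and 8 with a total that left out the abundant genes, against 4 as deposited. Of all genes, 43.7%, 45.1% and 42.7% passed in these 3 fits, so the share of the 25 regulators was still the lower one.

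Other senescence-associated genes numbered 22, of which 20 were tested. In C57 Het 5 were higher and 2 lower (35%, beside 38% of all genes), and in Mixed Het 11 were higher and 2 lower (65%, beside 44.1%), with median log2 differences of -0.03 and 0.50. The list was not split by the direction a gene takes in senescence, so these counts and medians are no senescence score. In C57 those that rose included Bcl2l1, which encodes the survival protein BCL-XL (0.48, limma adjusted p = 0.000275), and Bambi, a decoy receptor for TGF-beta (0.46, adjusted p = 0.00883). In Mixed they included the matrix protease gene Mmp2 (1.52, adjusted p = 0.000903) and Plaur, the urokinase receptor (1.05, adjusted p = 6.59e-05). Mmp2 is expressed by mesenchymal cells, and in Mixed Het it ranged from 0.708 to 12.1 TPM. With the immune and mesenchymal scores as covariates Mmp2 (0.14) and Plaur (0.36) did not pass, and 4 of the 20 genes did, beside 17.7% of all genes in that fit. Bambi did not pass in C57 with the acinar score as a covariate (adjusted p = 0.0530), in a fit where 21.8% of all genes did.

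**Figure D3:**
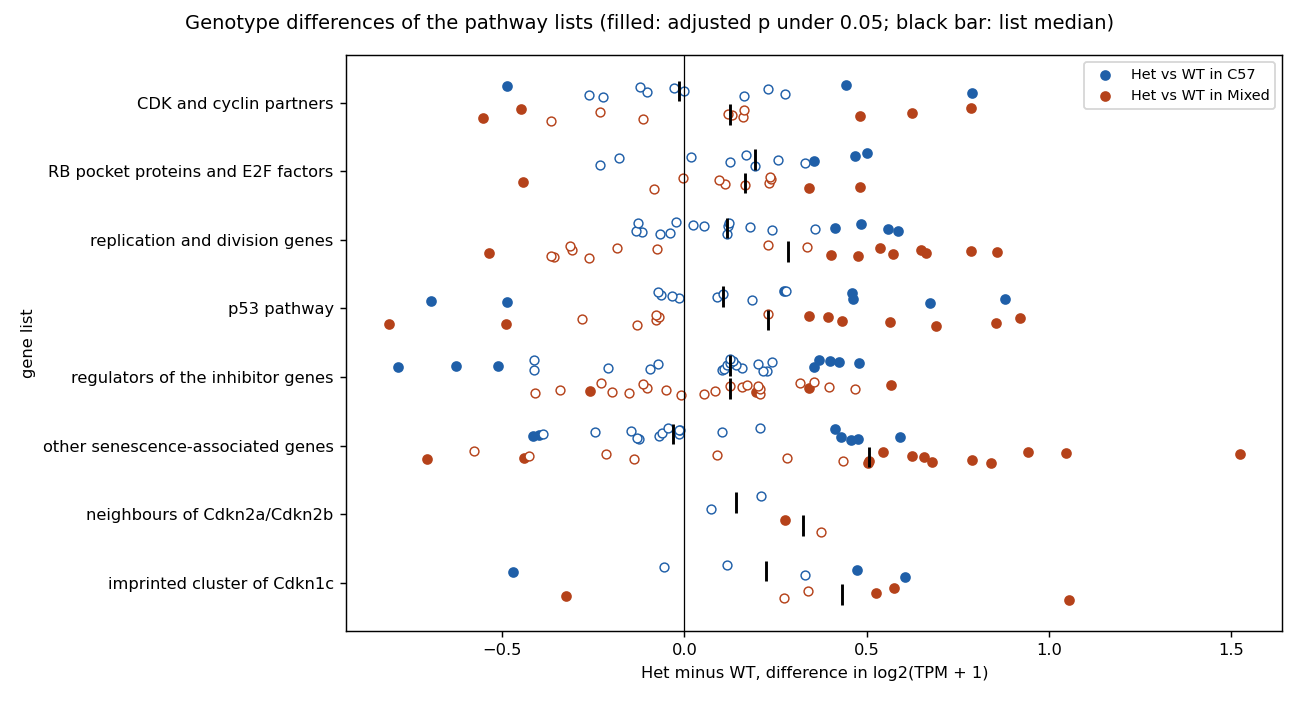
Het minus WT differences in log2(TPM + 1) (horizontal axis) for the tested genes of 8 lists, blue for C57 and red for Mixed, filled where the limma adjusted p was under 0.05, with a black bar at the list median. Medians of the other senescence-associated genes are -0.03 in C57 and 0.50 in Mixed, and those of the kinases and cyclins are -0.02 and 0.13.

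Genes near the inhibitors on the chromosome were read as well. Of the 3 neighbours of Cdkn2a and Cdkn2b, 2 were tested, and 0 passed in C57 (limma, with 1 at an unadjusted p under 0.05) and 1 in Mixed, Mtap (0.27, adjusted p = 0.0129), a gene of the methionine salvage pathway. Mtap did not pass in Mixed under each of 3 other scalings (0.15 to 0.17) or with either covariate set (0.20 and 0.32). The neighbours' shares were 0% and 50%, beside 38% of all genes in C57 and 44.1% in Mixed. Of the 8 genes of the Cdkn1c imprinted cluster 6 were tested. In C57 Het 2 were higher and 1 lower (50%, beside 38% of all genes). In Mixed Het 3 were higher and 1 lower (66.7%, beside 44.1%). With so few genes, the counts are no result about these loci. Cd81, a tetraspanin gene, rose by 0.60 (adjusted p = 0.000888) and 1.05 (adjusted p = 1.12e-06), and Nap1l4, a nucleosome assembly gene, by 0.47 (adjusted p = 7.82e-06) and 0.53 (adjusted p = 8.97e-07). Tssc4 rose by 0.58 in Mixed, a call lost with the immune and mesenchymal scores as covariates (0.47). Kcnq1ot1, the antisense transcript of the cluster, fell by 0.47 in C57 (adjusted p = 0.00756), but reads from it and from Kcnq1 may not be told apart, since the use of strand in the counting is not given in the sources used here.

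The genes most like each member were those with the highest Pearson correlation of log2(TPM + 1) over the 22 libraries, among 13329 genes. They were Slc7a1 (0.921), Camk2n2 (0.914) and Hbs1l (0.914) for Cdkn1a, and Slc49a4 (0.935), Crot (0.919) and Slc31a2 (0.917) for Cdkn2b. Within groups, over deviations from the group means, the values fell to between 0.462 and 0.692 for Cdkn1a and between 0.474 and 0.728 for Cdkn2b. For Cdkn1b they were Tug1 (0.921), Ap5m1 (0.917) and Zc3hav1l (0.903), and for Cdkn2c they were Cdc20 (0.934), Pbk (0.921) and Prc1 (0.911). For these 2 members the likeness was as high within groups, at 0.927 to 0.954 for Cdkn1b and 0.903 to 0.94 for Cdkn2c. Cdkn1c was most like Psmb8 (0.807), Cdkn2a most like Pkmyt1 (0.775) and Cdkn2d most like Fndc5 (0.797). Libraries share their groups and a fixed total, and no p-value is given.

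**Figure D4:**
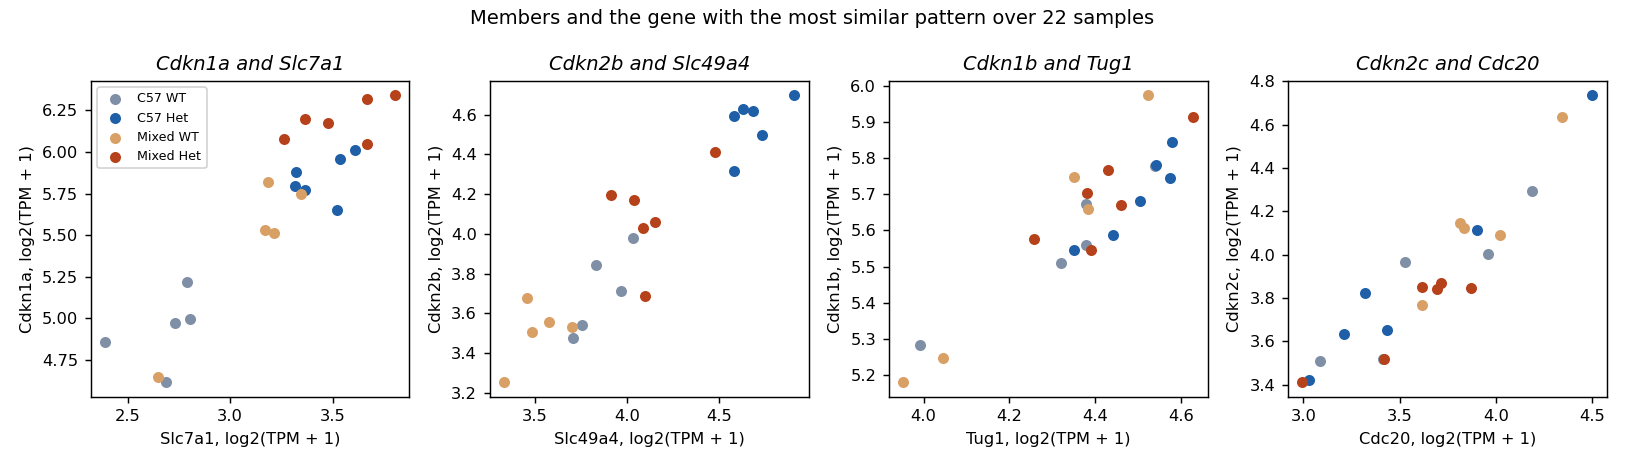
Cdkn1a, Cdkn2b, Cdkn1b and Cdkn2c (vertical axes, log2(TPM + 1)) against the most similar gene of each (horizontal axes, log2(TPM + 1)), 1 point per library, coloured by group. Het points lie mostly toward higher values on both axes for Cdkn1a with Slc7a1 (correlation 0.921), with some overlap with Mixed WT points, and the genotypes lie mixed for Cdkn1b with Tug1 (0.921) and Cdkn2c with Cdc20 (0.934).

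Across the alternatives and the fits without 1 library, Cdkn1a in C57 lay between 0.80 and 1.02 and passed in each. In Mixed it lay between 0.54 and 0.83, and passed in each fit except that with the immune and mesenchymal scores.

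**Figure D5:**
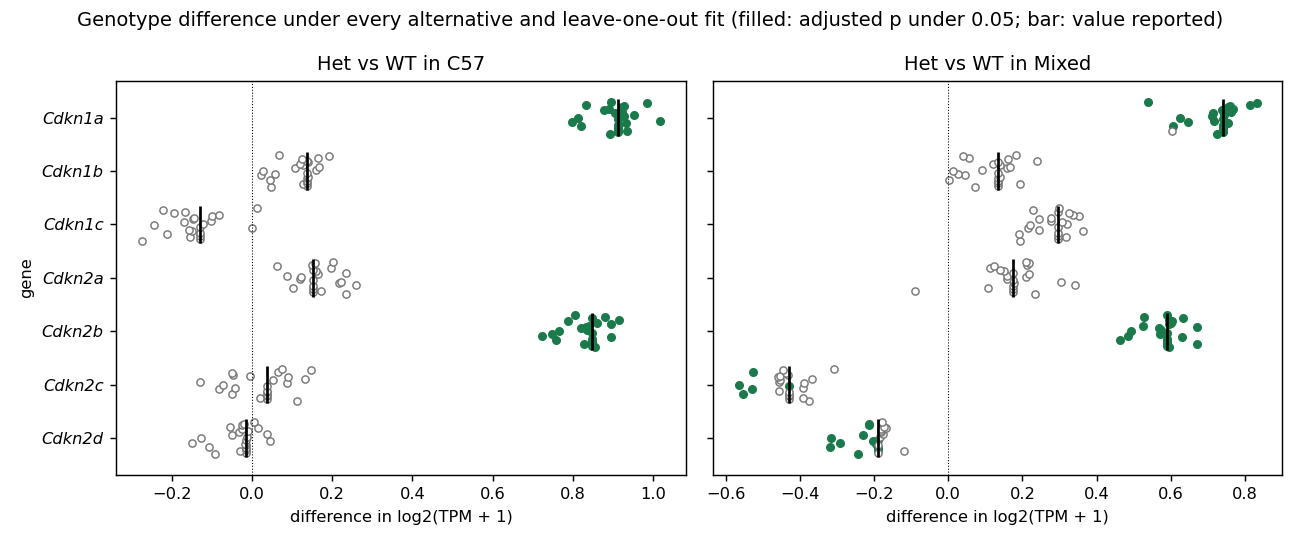
Het minus WT differences in log2(TPM + 1) of the 7 inhibitors under every alternative and every fit without 1 library, filled where the limma adjusted p was under 0.05, with a bar at the value reported. All Cdkn1a and Cdkn2b points lie above 0, the lowest at 0.54 and 0.46 in Mixed, and the Cdkn2d points in Mixed lie on both sides of the threshold.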

How the data were processed

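Islet poly(A) RNA of 22 mice in 4 groups was analysed. The authors deposited 1 table of TPM values, 57010 rows by 22 columns, with a median column total of 1e+06. Reads were aligned with STAR 2.7.10b to mm39, with MultiQC 1.7 also listed, per the submitters' processing notes; the counting tool and annotation are not given in the sources used here. Columns were matched to samples by name, and 0 value columns were unused. TPM keeps no depth, so no counting interval was computed, and TPM divides by a total, so a fall in abundant transcripts raises other values.

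Expression was taken as log2(TPM + 1), a scale that understates changes near 0. The filter required 1 TPM or more in 5 samples or more, and the 16756 genes left were fitted with limma 3.58.1 in R 4.3.3 (lmFit, eBayes with trend) as 4 group means over all 22 samples, with Benjamini-Hochberg adjustment over all genes and a threshold of 0.05. All adjusted p-values are from limma. Each library came from 1 mouse. Intervals are 95%. The script was tested on simulated data.

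The members, gene lists, marker lists and alternatives were chosen with earlier results of these data known. Named genes were the members, Mafa, up to 3 passing genes per list and genotype contrast with the largest differences, the 3 genes most like each member (provisional genes left out) and the markers; some genes this rule names are not reported here. Marker scores were mean log2(TPM + 1). Alternatives were a pseudocount of 0.1, no filter, a minimum mean of 5 TPM, median-of-ratios and quantile scaling, a total without genes over 1% of a library, the contrast's samples alone, acinar or immune and mesenchymal scores as covariates, no variance trend, sample weights, and each library left out. The promoter windows are of GRCm38.p6, not the build of the reads, and were used for their letters and their own coordinates.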

Additional observations from a re-analysis of the deposited data

Results flagged for a closer look

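The Cdkn2d value of Mixed Het replicate 2, 31.5 TPM, stood apart from the other 5 mice of its group, the highest of which was at 26.9 TPM. The gap was 0.864 of the group's range, above the critical value of 0.625, in 1 of 28 groups examined, where chance flags about 1 group in 20.

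By limma's interaction test over all genes, the genotype difference depended on background in 7 of the 116 member and list genes, beside 7.36% of all genes, so the count is no result about these lists. The interaction (Mixed difference minus C57 difference) was positive for Mmp2 (1.54, adjusted p = 0.0494), Plaur (1.06, adjusted p = 0.0150), Phlda3 (0.98, adjusted p = 0.0254), Igfbp7 (0.68, adjusted p = 0.0367) and E2f2 (0.57, adjusted p = 0.0442). It was negative for Mcm4 (-1.09, adjusted p = 0.0317) and Tgfbr1 (-0.60, adjusted p = 0.0314). Mmp2 differed by -0.01 in C57 and 1.52 in Mixed, Plaur by -0.02 and 1.05, Phlda3 by -0.06 and 0.92, Igfbp7 by -0.06 and 0.62, and E2f2 by -0.23 and 0.34. Mcm4 differed by 0.56 and -0.54, and Tgfbr1 by 0.37 and -0.23. None of the 7 passed with the immune and mesenchymal scores as covariates, in a fit where 0.0179% of all genes had an interaction. The calls for Plaur and Phlda3 held without each of the 22 libraries in turn. The call for Mmp2 was lost without any 1 of 19 of them, E2f2 of 17, Igfbp7 of 12, Tgfbr1 of 7 and Mcm4 of 6. Without the filter on low values, where 1.91% of genes passed, only Plaur of the 7 kept its call (Phlda3 had an adjusted p of 0.0581).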

How the results depend on the processing

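No paired analysis was possible because the replicate numbers only follow accession order and pair no samples. Cdkn1a and Cdkn2b kept their direction and passed in both genotype comparisons under each alternative and without each library, except Cdkn1a in Mixed with immune and mesenchymal covariates (0.60). The number of members that passed changed as follows. In Mixed it was 1 to 4 of 7 under the alternatives and 2 to 4 without 1 library, against 3. It was 1 with immune and mesenchymal covariates, where 17.7% of all genes passed, against 44.1%. Cdkn2c was gained with the 3 other scalings and with the contrast's samples alone, where 42% to 45.1% of all genes passed. Cdkn2d was also lost without the filter on low values (21.8% of all genes) and without the variance trend (43.9%). For Mixed against C57 in WT the number was 1 as reported, beside 11.3% of all genes. It was 0 without the filter on low values (4.66% of all genes) and with the contrast's samples alone (4.96%). It was 2 with quantile normalization (15.6%), a total without abundant genes (14.5%) or sample weights, where the share was also above 11.3%. It was 0 to 2 without 1 library. For Mixed against C57 in Het the number was 1 as reported, beside 20.5% of all genes. It was 2 with the contrast's samples alone (25.1% of all genes) and 0 with immune and mesenchymal covariates, where 0.161% of all genes passed. The cause of these changes was not tested. Differences near 0 that did not pass changed sign. With median-of-ratios scaling, Cdkn1b (-0.0049) and Cdkn1c (-0.033) between backgrounds in WT and Het, Cdkn2d between backgrounds in Het (-0.0052) and Cdkn2c in C57 (-0.050) did. Quantile normalization turned the same Cdkn1b (-0.052) and Cdkn1c (-0.076) values and Cdkn2c in C57 (-0.083), the interactions of Cdkn1b (0.023) and Cdkn2a (-0.040), and the C57 values of Mmp2 (0.026) and Plaur (0.058). With a total without abundant genes the values were -0.045 for Cdkn1b in WT, -0.048 for Cdkn1c in Het, -0.016 for Cdkn2d in Het and -0.071 for Cdkn2c in C57. Sample weights gave 0.00094 for Cdkn1c, -0.043 for Cdkn2c, 0.045 for Cdkn2d, 0.082 for Igfbp7, 0.076 for Mmp2 and 0.25 for Plaur, all in C57. A pseudocount of 0.1 gave 0.018 for Plaur in C57. The acinar covariate gave 0.024 and -0.0013 for the interactions of Cdkn1b and Cdkn2a, -0.057 for Cdkn1b in WT, -0.047 for Cdkn1c in Het, and 0.045 and 0.089 for Mmp2 and Phlda3 in C57. Immune and mesenchymal covariates gave 0.064 and -0.26 for the same interactions, 0.067 for Cdkn1b in Het, -0.091 for Cdkn2a in Mixed, and 0.015 and 0.031 for Mmp2 and Plaur in C57. Leaving out 1 library turned the following values. Between backgrounds Cdkn1b ranged from -0.045 to 0.029 in Het and from -0.10 to 0.096 in WT, Cdkn1c from -0.048 to 0.059 in Het and Cdkn2d from -0.015 to 0.074 in Het. The interactions ranged from -0.097 to 0.10 for Cdkn1b and from -0.058 to 0.11 for Cdkn2a. In C57 the ranges were -0.22 to 0.012 for Cdkn1c, -0.13 to 0.15 for Cdkn2c, -0.054 to 0.038 for Cdkn2d, -0.12 to 0.085 for Igfbp7, -0.12 to 0.058 for Mmp2, -0.20 to 0.0024 for Phlda3 and -0.13 to 0.14 for Plaur. The share of all genes that passed was 21.8% in C57 with the acinar covariate, against 38%. It was 17.7% in Mixed with immune and mesenchymal covariates, against 44.1%. Counts of list genes that passed moved by over 1.5 times as follows. The acinar covariate left 2 replication, 1 RB and E2F and 3 regulator genes in C57 and 0 neighbours in Mixed. Immune and mesenchymal covariates left, in Mixed, 3 kinases and cyclins, 0 RB and E2F, 1 replication, 2 p53, 2 regulator, 4 senescence-associated, 0 neighbour and 2 cluster genes. A mean TPM of at least 5 left 3 kinases and cyclins and 0 RB and E2F genes in Mixed, since fewer genes were tested, and 1 neighbour in C57. Median-of-ratios scaling gave 7 regulators and 0 neighbours in Mixed, quantile normalization 7 and 0 there and 2 replication genes in C57, and the total without abundant genes 8 and 0. Of all genes, 43.7%, 45.1% and 42.7% passed in Mixed in these fits, and 39.1% in C57 with quantile normalization. Sample weights gave 6 RB and E2F genes in C57 (40.6% of all genes), and the contrast's samples alone 2 neighbours in Mixed (42%). Without 1 library the C57 counts ranged from 3 to 5 for kinases and cyclins and for RB and E2F genes, from 0 to 1 for neighbours and from 5 to 11 for regulators. The alternatives for the list genes and list counts were chosen after seeing the data. TPM gives no depth, so precision at low levels, as for Cdkn2a, is unknown.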
